A study of Ginkgo biloba with 16 samples.

Results

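The transcriptome of the vascular cambium was compared between ~200-y-old (VC200) and ~20-y-old (VC20) *Ginkgo biloba* trees. All genes with an FPKM (read fragments scaled to gene length and library size) of at least 1 in at least 3 of the 9 RNA-seq libraries were included, which left 21,924 of 43,911 deposited gene entries. Each library came from a separate tree, so that p values refer to the spread between trees. The VC20 trees were 15, 20 and 22 y old (trees A, B and C), and the VC200 trees were 193, 211 and 236 y old (A, B and C). Values below are given in that order. Rings were counted for the VC20 ages, whereas the study estimated the ages of thicker old trunks from diameter and mean ring width. VC600 trees of 538, 553 and 667 y contributed to the estimate of the spread and are set beside the comparison at its end. All trees were healthy females growing under natural conditions, the cambium was sectioned tangentially from frozen trunk specimens taken in late May, and no treatment was applied. The sequenced trees grew at Pizhou according to the methods, whereas the sample labels name more than a single site. The site of single libraries was therefore not settled here, and their collection year is not given in the labels. The specimens also contained phloem and the outermost xylem, so that neighbouring tissues can contribute RNA. The ID of each gene is that of the draft *G. biloba* genome, and the annotations are those of the study's supplementary tables.

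The vascular cambium is the lateral meristem that divides to form xylem inward and phloem outward. Young xylem cells expand, deposit a cellulose and xylan wall, and are lignified when laccases and class III peroxidases oxidize monolignols in the wall. Auxin, cytokinin and gibberellin promote cambial activity, whereas abscisic acid (ABA), whose synthesis is committed by 9-cis-epoxycarotenoid dioxygenase (NCED), is associated with drought and dormancy. In a bulk sample, fewer cells of a type and less RNA per cell cannot be told apart.

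The VC200C library stood apart from the other libraries. VC200A and VC200B differed from each other by a median of 0.184 on the log2(FPKM + 1) scale, whereas VC200C differed from them by 0.462 and 0.501. The pairs of VC20 trees differed by medians of 0.204 to 0.317. In VC200C, 1,406 genes lay at least 1 log2 unit above both other VC200 trees and 1,986 lay at least 1 below both, 3,392 genes in all. In each of the other 8 libraries 197 to 768 genes stood apart from their group in this way. The results are therefore given with and without VC200C, and each named gene is given with its value in every tree.

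**Figure D1:**
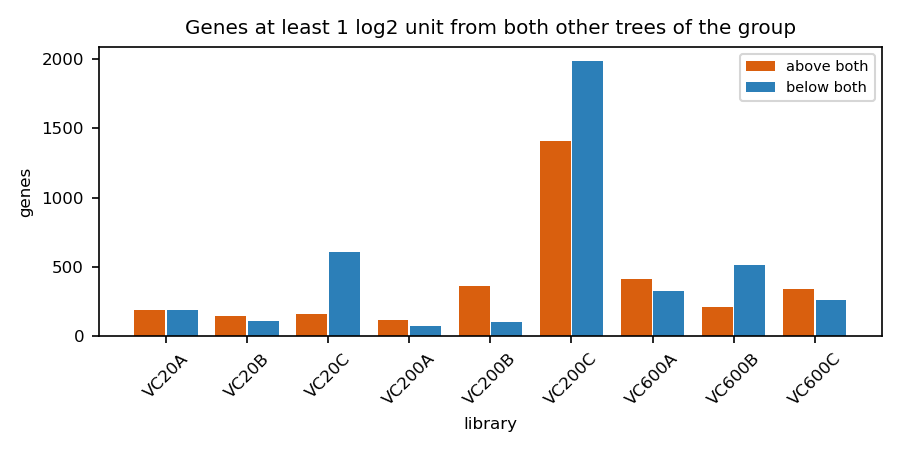
Number of tested genes (y axis) at least 1 unit on the log2(FPKM + 1) scale above both (orange) or below both (blue) other trees of the same group, for each library (x axis). VC200C has 1,406 genes above and 1,986 below, more in each direction than any other library.

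*WOX4* (Gb_05339), which marks the cambium in *Arabidopsis* and poplar and was chosen after its values were seen, was 21.5, 37.2 and 17.2 FPKM in VC20 and 9.62, 17.3 and 0.450 FPKM in VC200. It was thus nearly absent from VC200C, and VC200B lay inside the VC20 range (−1.93 ± 0.85, adjusted p = 0.248). A second *WOX4* gene of the study (Gb_12565) was low in all trees, with 3.71, 4.50 and 3.04 FPKM in VC20 and 1.01, 2.16 and 0 FPKM in VC200 (−1.35 ± 0.48, 0.176). Neither gene was called.

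Marker lists of neighbouring tissues were summed in each tree. Markers of developing xylem (cellulose synthases of the secondary wall, laccases and IRX proteins) summed to 183 to 421 FPKM in the VC20 trees and 43.6 to 82.1 FPKM in the VC200 trees. Of the 18 members tested, 17 had a negative log2 fold change, and 5, all laccases, were called lower. Gb_00462, Gb_14614, Novel00229 and Novel00995, 4 laccases of the 24 markers, were listed at 0 in all VC200 trees. Phloem markers (APL, NAC45 and NAC86) summed to 25.6 to 35.7 FPKM in VC20 and 72.1 to 101 FPKM in VC200. All 3 were positive and none was called. Green tissue markers summed to 46.0 to 49.95 FPKM in VC20 and 44.4 to 55.1 FPKM in VC200, so that the sums overlapped. Of the 6 members, 4 lay below VC20 without overlap and 1 above, against 21.1% and 7.43% of all tested genes. The median log2 fold change of the 6 was −1.0, and none was called. Markers of cork and cuticle lipids, of which 2 of 7 were tested, summed to 8.6 to 16.4 FPKM in VC20 and 66.6, 35.5 and 1.3 FPKM in VC200. The tested members went opposite ways. Gb_37212, a feruloyl transferase, carried the sum with 65.7, 33.8 and 1.28 FPKM in VC200 against 4.34, 2.81 and 2.31 FPKM in VC20, and Gb_28315 (CYP86B1) was 0.521, 1.54 and 0 FPKM against 10.6, 8.68 and 4.87 FPKM. Neither was called. All tested markers except 1 of green tissue were annotated through the study's tables of genes that differed in these same libraries. Their direction is therefore not independent evidence. The part of these tissues in the differences below was not tested.

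With limma and Benjamini-Hochberg adjustment over all tested genes, 217 genes passed an adjusted p of 0.05 together with a log2 fold change of 1 in either direction and are referred to as called, which is 0.99% of genes tested. Genes said not to be called can pass in other fits, such as DESeq2 on recovered fragments, which called 1053 genes. Transcript levels of 62 genes (0.283%) were higher and those of 155 genes (0.707%) were lower in VC200. The absolute log2 fold change of called genes had a median of 1.79 and reached 4.83. It was at least 2 for 88 genes and at least 3 for 37 genes. In all 217 genes the 3 VC200 trees lay on one side of the 3 VC20 trees. The same was true of 1,630 tested genes in the higher (7.43%) and 4,629 in the lower (21.1%) direction, 28.5% of all tested. Of the lower genes, 43 were under 1 FPKM in every VC200 tree, and 19 of the higher genes were under 1 FPKM in every VC20 tree. IDs such as Novel00066 mark gene entries that do not carry a Gb_ name, and 44 called genes (20.3%) had such an ID, against 1,543 (7.04%) of those tested.

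The calls lay close to the threshold. The lowest adjusted p was 0.00694, and in 108 genes it was 0.04 or more. Just inside were a laccase (Novel01787, adjusted p = 0.0497) and Novel01287 (0.0497), and just outside were laccase-11 (Gb_11065, 0.0501) and a protein kinase 2B (Gb_39620, 0.0505). Over all tested genes, the median difference was −0.12 on the log2 scale. Quantile normalization moved it to 0.00 and gave 212 called genes (0.967%), 87 higher (0.397%) and 125 lower (0.57%), so that 41.0% of calls were higher instead of 28.6%. No called gene changed sign under quantile normalization, and none of those with recovered fragments did so under edgeR or DESeq2. This is no separate support, since the same libraries were used and the groups did not overlap in any called gene.

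The largest increases included cytochrome P450s of the 78A family, of which *KLUH* of *Arabidopsis* promotes organ growth. Transcript levels of *CYP78A4* (Gb_34420) were 1.02, 0.938 and 0.599 FPKM in VC20 and 151, 62.9 and 13.8 FPKM in VC200. Every VC200 tree exceeded every VC20 tree, and VC200C was the lowest of the 3 (log2 fold change 4.83 ± 0.82 SE, adjusted p = 0.0426). A second gene with this annotation (Gb_13597) rose from 22.3, 16.7 and 11.9 FPKM to 289.9, 207 and 139 FPKM (3.54 ± 0.54, 0.0337). The third tested gene (Gb_02234), named after its values were seen, was at most 0.265 FPKM in VC20 and 2.53, 1.93 and 1.77 FPKM in VC200 (1.45 ± 0.24, 0.0412). All 3 tested genes of the 5 annotated with this name were thus higher, and all 3 were also called without VC200C. They share a family annotation, their sequences were not compared, and whether the counting split reads among them was not tested.

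Genes annotated as transporters were among both the increases and the decreases. Of 72 tested transporters, 3 were called higher and 3 lower, and their median was −0.22. The phosphate transporter *PHO1* homolog 1 (Gb_20888), whose *Arabidopsis* relative *PHO1* loads phosphate into the xylem, had 5.94, 2.46 and 4.55 FPKM in VC20 and 76.8, 41.6 and 42.5 FPKM in VC200. The groups were well separated (3.36 ± 0.35, adjusted p = 0.0132), and the call held without VC200C (0.0173) and with edgeR (0.0180). A glycerophosphodiester phosphodiesterase (Gb_23497), an enzyme that releases glycerol 3-phosphate from deacylated phospholipids, was 3.35, 3.47 and 4.25 FPKM in VC20 and 64.8, 19.4 and 87.3 FPKM in VC200 (3.39 ± 0.62, 0.0475). Its VC200 trees were above VC20 but unequal, and it was not called without VC200C (0.063). The *MATE* efflux gene annotated as multidrug and toxin extrusion protein 2 (Gb_41153) rose from 6.25, 4.27 and 6.66 FPKM to 101, 58.9 and 56.3 FPKM (3.41 ± 0.54, 0.037). *ABCG14* (Gb_27520), which exports cytokinin toward the shoot in *Arabidopsis* and was chosen after its values were seen, rose from 25.1, 14.0 and 10.04 FPKM to 93.9, 84.1 and 135 FPKM (2.66 ± 0.33, 0.0285). VC200C was the highest tree for *ABCG14* and near VC200B for the efflux gene.

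Other genes among the 10 largest increases act in stress responses or have no annotation. *NCED1* (Gb_19071) was 6.39, 6.09 and 3.85 FPKM in VC20 and 58.3, 69.8 and 87.5 FPKM in VC200 (3.51 ± 0.63, adjusted p = 0.0475). The VC200 trees all lay far above the VC20 trees, and without VC200C the adjusted p was 0.063. The gene for LURP-one-related protein 12 (Gb_00432), of a family linked to pathogen response in *Arabidopsis*, rose from 18.4, 8.85 and 5.75 FPKM to 129, 99.4 and 142 FPKM (3.498 ± 0.55, 0.037). It was not called without VC200C (0.0512). Chaperone protein dnaJ 20 (Gb_05958), a chloroplastic co-chaperone of Hsp70, was 0.0889, 1.59 and 2.42 FPKM in VC20 and 18.1, 17.7 and 28.5 FPKM in VC200 (3.36 ± 0.63, 0.0497). It too was lost without VC200C (0.0694). Of the genes without annotation, Gb_18191 was at most 0.257 FPKM in VC20 and 18.4, 18.8 and 12.2 FPKM in VC200, and Gb_05668 was at most 0.337 FPKM in VC20 and 18.6, 16.9 and 7.22 FPKM in VC200. Both were close to absent in the young trees and present in every VC200 tree, with log2 fold changes of 3.90 ± 0.34 and 3.60 ± 0.47. Novel00339 rose from 7.83, 4.11 and 2.51 FPKM to 30.1, 92.4 and 116 FPKM (3.69 ± 0.56, 0.0337), with an unequal response of the VC200 trees.

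The largest decrease was that of *MADS22* (Gb_34101), annotated as a MADS-box transcription factor. Its transcript levels were 71.9, 42.0 and 49.5 FPKM in VC20 and 0.0553, 0.0578 and 5.13 FPKM in VC200. VC200C retained a low level, whereas VC200A and VC200B were close to 0 (−4.83 ± 0.61, adjusted p = 0.0289), and without VC200C the adjusted p was 0.000226. On recovered fragments, edgeR did not call the gene (0.129) until VC200C was left out (0.000344). Zinc transporter 2 (Gb_40083) fell from 30.9, 48.2 and 14.2 FPKM to 0.464, 0.807 and 1.49 FPKM (−3.94 ± 0.48, 0.0279). *Cyclin-U2-2* (Gb_11201), of the cyclin family, fell from 32.6, 24.2 and 30.02 FPKM to 1.02, 0.485 and 1.72 FPKM (−3.88 ± 0.73, 0.0497). The groups were far apart, but the cyclin was not called without VC200C (0.0584). A *KDEL*-tailed cysteine endopeptidase (Gb_24406), of a protease type that acts in plant programmed cell death, fell from 10.4, 28.4 and 10.4 FPKM to 0.246, 0.441 and 0 FPKM (−3.69 ± 0.58, 0.0369). An aldo-keto reductase (Novel00152) was the most variable of these genes, with 432, 109 and 76.2 FPKM in VC20 and 3.45, 16.9 and 2.81 FPKM in VC200 (−4.52 ± 0.85, 0.0497). It was not called without VC200C (0.0707). The others among the 10 largest decreases were a laccase described below, Novel00021, annotated as a hypothetical protein, and Gb_10187, Gb_16430 and Novel00753, which have no annotation. Their log2 fold changes ranged from −4.46 ± 0.58 (Gb_10187) to −3.64 ± 0.66 (Novel00021).

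Among abundant transcripts, annexin D2 (Gb_33605), a calcium-dependent membrane-binding protein, rose from 746, 667 and 514 FPKM to 1641, 1668 and 1443 FPKM (1.31 ± 0.20, adjusted p = 0.0337). The 3 VC200 trees were nearly equal, and each was above every VC20 tree. The chloroplastic iron superoxide dismutase (Gb_18841), which converts superoxide to hydrogen peroxide, fell from 582, 718 and 416 FPKM to 134, 163 and 81.9 FPKM (−2.19 ± 0.28, 0.0289). *Apyrase 1* (Gb_10760), which hydrolyses nucleoside triphosphates and diphosphates, fell from 467, 269.9 and 244 FPKM to 78.7, 49.3 and 107 FPKM (−2.06 ± 0.32, 0.0364). These 3 genes were also called without VC200C, as were the unannotated Gb_22566 and Novel00018, which rose, and Gb_14213, which fell, so that all 6 of the most abundant called genes remained.

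Gene lists were described by their counts and medians, beside the 0.283% higher and 0.707% lower calls and the median of −0.12 over all tested genes. Many members were annotated through the study's tables of genes that differed in these same libraries. The direction of such members is not independent evidence. Every called member of a list came from these tables, whereas most members of the large receptor and resistance lists came from other tables.

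Among the lists of enzymes and pathways, laccases had the most negative median. Of 10 tested laccases, 5 were called lower, none was called higher, and all 10 had a negative log2 fold change (median −2.91). Novel00066 fell from 8.38, 18.1 and 6.89 FPKM to 0, 0.0710 and 0.0394 FPKM (−3.44 ± 0.45, adjusted p = 0.0289). Novel01537 fell from 6.88, 40.6 and 7.45 FPKM to 0, 0.259 and 0 FPKM (−3.70 ± 0.64, 0.0441). Novel01787 fell from 23.8, 24.3 and 7.56 FPKM to 1.03, 1.32 and 0.0305 FPKM (−3.37 ± 0.64, 0.0497). Novel00066 and Novel01537 were under 0.3 FPKM in all VC200 trees and Novel01787 in VC200C, while VC20 ranged several-fold between trees. Without VC200C, 2 laccases remained called and the median was −2.72. These laccases are also part of the developing xylem markers, whose summed level was 183 to 421 FPKM in VC20 and 43.6 to 82.1 FPKM in VC200. Laccase sequences were not compared. Whether the counting split reads among copies was not tested, so that the values of single copies are uncertain.

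Class III peroxidases, the other oxidases of lignification, had 10 negative values of 11 and a median of −1.69, but none was called. Their members with the smallest p were Peroxidase 3 (Gb_18532, −1.55 ± 0.33, adjusted p = 0.0618) and Peroxidase 53 (Gb_04549, −1.73 ± 0.40, 0.0747). DESeq2 on recovered fragments called these genes lower (adjusted p = 0.0119 and 0.00191). Enzymes that make monolignols and lignans, upstream of laccases and peroxidases, had 9 positive and 14 negative values, with a median of −0.85. Of them, 13 lay below VC20 without overlap and 7 above, against 21.1% and 7.43% of all tested genes. Only cinnamoyl-CoA reductase 1 (Gb_17592), the first enzyme committed to monolignols, was called. It rose from 16.0, 27.9 and 25.0 FPKM to 107, 88.5 and 63.2 FPKM (1.87 ± 0.25, 0.0289), and all VC200 trees were above all VC20 trees. Its call held without VC200C (0.0207) and with edgeR (0.0279).

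Most genes for wall polysaccharides had negative log2 fold changes. Of 26 genes for secondary wall polysaccharides, 5 were called lower and 25 had a negative log2 fold change (median −1.66). They included a trichome birefringence-like protein (Gb_34157), of a family that acetylates wall polysaccharides, with 5.12, 11.8 and 3.64 FPKM in VC20 and 0.0981, 0.137 and 0 FPKM in VC200 (−2.73 ± 0.41, adjusted p = 0.0337). They also included probable galacturonosyltransferases, namely Gb_09765 (−2.43 ± 0.43, 0.0467) and Gb_30482 (−1.72 ± 0.25, 0.0328). These entered the list by their annotation, and their part in the secondary wall was not tested. Of 31 genes for wall loosening and pectin, 6 were called lower and none higher (median −1.30). A xyloglucan endotransglucosylase (Gb_22327), which cuts and rejoins xyloglucan in growing walls, fell from 54.2, 38.4 and 37.98 FPKM to 6.34, 9.68 and 3.51 FPKM (−2.63 ± 0.50, 0.0497). VC200C was the lowest tree, and without it the adjusted p was 0.0669. A non-catalytic polygalacturonase subunit (Gb_32942) fell from 102, 84.0 and 58.3 FPKM to 17.8, 23.2 and 6.82 FPKM (−2.40 ± 0.41, 0.0426), and a beta-galactosidase (Gb_40553) by 1.30 ± 0.23 on the log2 scale (0.0467). Without VC200C, 4 members were called in each list, 3 of them also called with it, and the medians were −1.30 and −1.12. The polysaccharide list shares 10 of its members with the developing xylem markers, so that their sums moved together in part by construction. None of these shared members was called. The part of xylem tissue in both lists was not tested.

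Of 49 genes of the cell cycle and cytoskeleton, 7 were called lower and none higher (median −1.24). Beside the cyclin above, profilin (Gb_19630), which binds actin monomers, fell from 5.05, 18.1 and 7.42 FPKM to 0.133, 0.557 and 0 FPKM (−3.03 ± 0.43, adjusted p = 0.0325). A microtubule-associated protein (Gb_17288) fell from 4.50, 2.56 and 2.13 FPKM to 0.122, 0.0958 and 0.177 FPKM (−1.80 ± 0.25, 0.0302). Both were under 1 FPKM in every VC200 tree. The members were annotated from different tables. The 34 members from the tables of differing genes had a median of −1.43, whereas the 15 members from other tables had a median of −0.42 and no call. Without VC200C, 3 of the 7 remained called.

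Of 31 copper and iron proteins, 5 were called lower and 1 higher (median −1.27). A copper transport protein (Novel00665) fell from 26.1, 15.4 and 8.66 FPKM to 0.671, 0.964 and 0.146 FPKM (−3.39 ± 0.54, adjusted p = 0.037). A heavy metal-associated isoprenylated protein (Gb_20922) fell from 27.5, 49.8 and 43.3 FPKM to 7.73, 8.95 and 4.14 FPKM (−2.39 ± 0.44, 0.0475), and an L-ascorbate oxidase homolog (Gb_17061), of the same multicopper family as laccases, fell from 73.0, 67.1 and 41.1 FPKM to 14.1, 24.0 and 18.2 FPKM (−1.62 ± 0.31, 0.0497). The groups did not overlap in any of the 3. None of the 3 was called without VC200C (0.0523, 0.063 and 0.0641). Over the whole list, 2 members were called lower and 1 higher without VC200C, and 2 were called in both fits.

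Hormone genes gave few calls. Of 13 ABA genes, 10 were positive (median 0.86), but *NCED1* was the only one called. Without VC200C *NCED1* was not called (0.063), 1 other ABA gene was called higher, and the median was 0.82. Of 19 auxin genes, the auxin-induced protein 5NG4 (Gb_29218) was called, falling from 16.0, 10.99 and 4.50 FPKM to 0, 0.523 and 0.0726 FPKM (−3.14 ± 0.58, adjusted p = 0.0475). Without VC200C it was not called (0.063), and the list median of −0.20 was close to that of all genes. Gb_20590, described below by its domain annotation, is named as an auxin-responsive family protein in the study and was not in this list. Of 8 gibberellin genes, a gibberellin 3-oxidase (Novel00034), which forms the active hormone, was called. It was 0, 0 and 0.0993 FPKM in VC20 and 2.82, 2.06 and 1.39 FPKM in VC200, so that it was low in all trees (1.56 ± 0.26, 0.0399). No gene of 10 for cytokinin was called by limma. Those with the smallest p were a response regulator (Gb_07568, −2.15 ± 0.42, 0.0538) and a cytokinin riboside 5'-monophosphate phosphoribohydrolase (Gb_08598, 2.26 ± 0.58, 0.0928), which releases active cytokinin. DESeq2 on recovered fragments called Gb_07568 lower (adjusted p = 0.00555) and Gb_08598 higher (0.0015). With quantile normalization, limma called Gb_07568 lower (0.0483).

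Heat shock proteins and chaperones differed between the VC200 trees. Their summed level was 2518 to 3302 FPKM in VC20, 4510 and 4798 FPKM in VC200A and VC200B, and 10269 FPKM in VC200C. The sum was thus above VC20 in all 3 trees and highest in VC200C, and VC600A reached 6203 FPKM. Of 26 tested members, 19 were positive (median 1.0). The 20 members from the tables of differing genes had a median of 1.27, whereas the 6 from other tables had 3 positive and 3 negative values. Beside dnaJ 20, dnaJ 15 (Gb_03293) rose (1.08 ± 0.19, adjusted p = 0.0475) and a BAG family chaperone regulator (Gb_09360) fell (−1.77 ± 0.32, 0.0475), and the latter was not called without VC200C (0.055). Of 17 genes for raffinose-family sugars and starch, 11 were positive (median 0.88) and none was called, but 4 were called higher without VC200C. Their summed level went the other way, from 1711 to 3209 FPKM in VC20 to 829 to 1635 FPKM in VC200. Most of the sum in VC20 came from Gb_11710, a glucoamylase chosen after its values were seen, with 2355, 1142 and 2596 FPKM in VC20 and 773, 172 and 363 FPKM in VC200 (−2.39 ± 0.82, adjusted p = 0.166). The soluble starch synthase 3 gene (Gb_31910) came nearest to the threshold, with 6.06, 6.63 and 4.49 FPKM in VC20 and 11.98, 14.7 and 25.2 FPKM in VC200 (1.39 ± 0.29, 0.0595). Hexokinase-1 (Gb_15682), which phosphorylates and senses glucose, was in none of the lists and was chosen after its values were seen. It rose from 13.8, 11.7 and 11.2 FPKM to 38.3, 37.0 and 39.0 FPKM (1.57 ± 0.21, 0.0289), and its VC200 values were nearly identical.

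Defence genes had medians near that of all genes, apart from pathogenesis-related (PR) proteins. Of 149 disease resistance genes, 1 was called, TAO1 (Gb_14274), which fell from 7.99, 10.6 and 11.9 FPKM to 1.11, 1.12 and 2.02 FPKM (−2.21 ± 0.30, adjusted p = 0.0292). The median of these genes was −0.16. Of 20 PR proteins, 11 lay below VC20 without overlap and 7 above, against 21.1% and 7.43% of all tested genes. The median was −1.31, with 12 negative and 8 positive log2 fold changes, the latter of up to 4.28. Of the PR proteins, 3 were called lower and none higher, and without VC200C 2 were called lower and 1 higher. Their summed level was higher in VC200 (2559 to 3221 FPKM) than in VC20 (2044 to 2250 FPKM), opposite to the median. They included the glucan endo-1,3-beta-glucosidases Gb_10699, with 6.06, 9.23 and 10.9 FPKM in VC20 and 0.144, 0.151 and 0 FPKM in VC200 (−3.12 ± 0.41, 0.0289), and Gb_00237 (−1.57 ± 0.28, 0.0462), which cut callose and fungal glucans. The groups did not overlap for either gene. The third, a thaumatin-like protein (Novel01670), was 2.82, 8.21 and 2.63 FPKM in VC20 and was listed at 0 in every VC200 tree (adjusted p = 0.0383). Of these, Gb_00237 (0.0513) and Novel01670 (0.0512) were not called without VC200C. Of 124 receptor-like kinases, 2 were called higher and 3 lower (median −0.15). Among the lower was Gb_17006, a cysteine-rich receptor-like kinase, which fell from 47.5, 36.7 and 47.9 FPKM to 10.4, 10.5 and 10.9 FPKM (−1.95 ± 0.31, 0.037). A probable LRR receptor-like kinase (Gb_08425) was 2.16, 1.78 and 3.69 FPKM in VC20 and was listed at 0 in every VC200 tree (adjusted p = 0.0366). In the study's overlapping tables of immune receptors, *TAO1* was again the only called gene among 220 LRR and 128 NBS-LRR genes, and limma called none of 4 *FLS2* genes. When VC200C was left out, 1 disease resistance gene was called higher and 3 lower. Of the LRR and of the NBS-LRR genes, 1 was then called higher and 2 lower. DESeq2 on recovered fragments of all trees called the *FLS2* gene Gb_20103 higher (log2 fold change 1.54, adjusted p = 0.0176).

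The RNA-dependent RNA polymerase genes Gb_28429 and Gb_28430, whose *Arabidopsis* relative *RDR1* acts against viruses and which were chosen after their values were seen, rose from 2.67, 2.11 and 0.533 FPKM to 16.6, 17.0 and 8.96 FPKM (2.50 ± 0.43, 0.0426) and from 7.98, 7.22 and 3.97 FPKM to 33.9, 30.6 and 32.5 FPKM (2.22 ± 0.34, 0.0337). They were 2 of 3 tested genes with this annotation.

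Of 23 transcription factors of the MYB, NAC and WRKY families, NAC56 (Gb_35309) rose from 0.705, 0.583 and 0.400 FPKM to 4.04, 2.57 and 7.94 FPKM (1.80 ± 0.33, adjusted p = 0.0475), and a WRKY factor (Gb_25334) fell from 28.3, 23.9 and 18.8 FPKM to 1.61, 3.16 and 1.495 FPKM (−3.02 ± 0.33, 0.0161). Neither group overlapped the other for these 2 genes, and both calls held without VC200C. None of 35 autophagy genes was called by limma, and their median of −0.06 lay close to that of all genes.

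**Figure D2:**
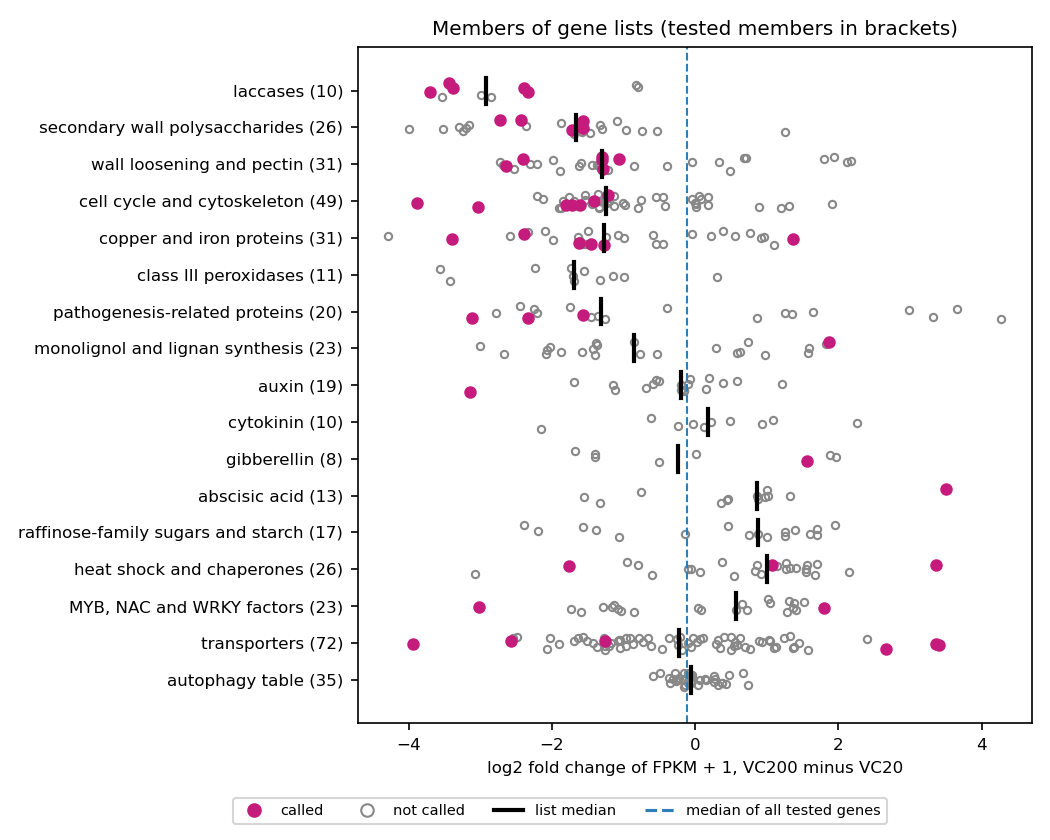
Log2 fold change of FPKM + 1, VC200 minus VC20 (x axis), of each tested member of 17 gene lists (y axis, tested members in brackets). Filled points were called, black bars are list medians and the dashed line is the median of all genes (−0.12). All 10 laccases lie below 0, with 5 called, whereas the 35 autophagy genes lie around 0 with none called.

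Some called genes were neighbours in the genome. In 11 cases consecutive called genes lay on the same scaffold, and 10 of these pairs changed in the same direction. In 9 pairs there was no tested gene in between, of which 8 changed in the same direction. The share of such pairs among all tested genes was not determined. Of the 217 called genes 155 were lower, so that many pairs share a direction for this reason alone. No conclusion is drawn from these counts. The RNA-dependent RNA polymerase genes lie on scaffold5029 on the plus strand, Gb_28429 at 1475899 to 1477632 and Gb_28430 at 1490122 to 1490898, 12,489 bases apart. Whether they are parts of 1 gene was not tested. Other neighbours are named for their position. The WRKY gene Gb_25334 lies 4,210 bases from Gb_25333 on scaffold4298, and both fell (−3.02 and −2.70). The exception was Gb_35422 (2.93) and Gb_35427 (−2.68) on scaffold7169.

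The deposited pairs of miRNAs and predicted targets held few of these genes. They listed 6 of the 217 called genes (2.76%) and 1,487 of all tested genes (6.78%). The laccase Gb_11065, which was not called, is listed with 7 miR397 entries, of which pab-miR397 and ath-miR397a had reads. For pab-miR397 the count was 2534 and 1646 in the VC20A and VC20B sRNA libraries and 89 and 102 in VC200A and VC200B. As CPM (counts scaled to the library total) these were 1711 and 1013 against 75.2 and 55.4. Both VC200 libraries were far below both VC20 libraries. For ath-miR397a, which is also listed with the laccase Gb_00462, the count was 18 and 19 against 1 and 0. Gb_11065 had a log2 fold change of −2.99, and Gb_00462 was listed at 0 in every VC200 tree. With 2 trees per group, no test was made, and VC200C has no sRNA library here.

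Without VC200C, limma called 235 genes (1.07%), 91 higher (0.415%) and 144 lower (0.657%). Of these, 124 were called with VC200C as well, 39 higher and 85 lower, which is 57.1% of the 217 and 52.8% of the 235. The 93 genes that were lost kept their sign, as they had to where the groups did not overlap. Of the lost genes, 83 were still past the fold threshold, and their adjusted p was 0.0321 to 0.0707. Lost and gained genes were sorted by what VC200C did to the call. The position of VC200C in them therefore follows in part from the sorting. In the lost genes VC200C was mostly as far from VC20 as the other trees. Its difference from the VC20 mean was a median of 122% of that of VC200A and VC200B, and in 64 of the 93 it lay beyond both. In the 111 genes that were gained, 52 higher and 59 lower, VC200C reached a median of 22.2% of that difference. In 32 of them it lay on the other side of the VC20 mean, and in 49 it was within the VC20 range or past it.

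**Figure D3:**
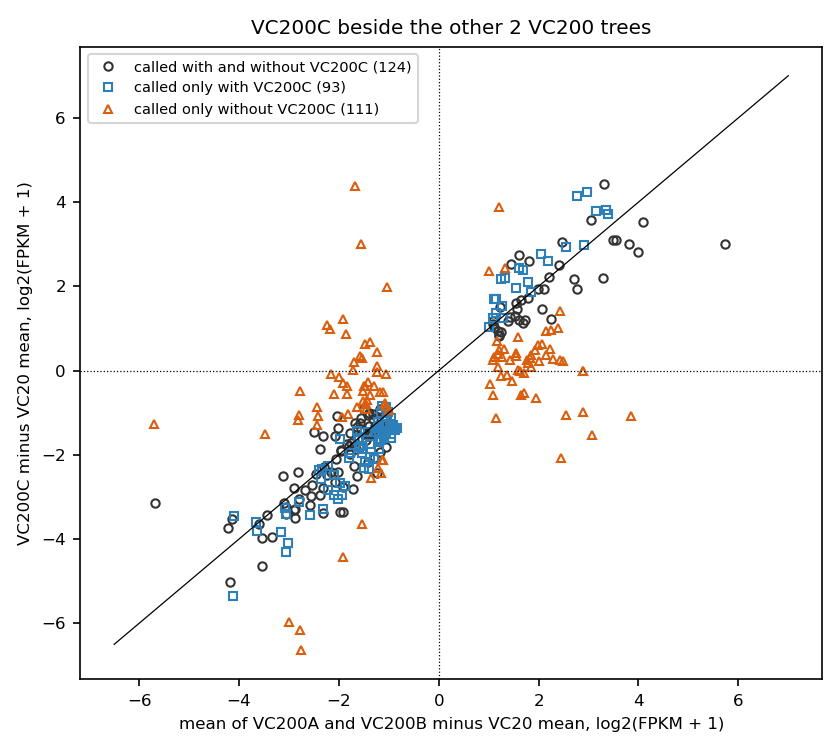
Difference of VC200C from the VC20 mean (y axis) against that of the mean of VC200A and VC200B (x axis), both on the log2(FPKM + 1) scale, for 124 genes called with and without VC200C (circles), 93 called only with it (squares) and 111 called only without it (triangles). Squares and circles follow the diagonal of equal difference, whereas many triangles lie near or across the horizontal line of no difference, 32 of them on the other side. The sets were sorted by what VC200C did to the call, so that this pattern follows in part from the sorting.

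VC200C was compared with the other VC200 trees in each direction. VC200A and VC200B were both at least 1 log2 unit above every VC20 tree in 178 genes, and VC200C was so too in 76 (42.7%). They were both at least 1 below every VC20 tree in 299 genes, and VC200C was so too in 198 (66.2%). Whether these shares differ was not tested. Some genes separated VC200C from its group by far more. Gb_31001 was 4376, 4147 and 6562 FPKM in VC20, 4.12 and 2.07 FPKM in VC200A and VC200B, and 10980.0 FPKM in VC200C. It was thus nearly absent from those VC200 trees and at its highest in VC200C. In VC600 it was 3478, 4832 and 5.996 FPKM, so that VC600C was low and the other VC600 trees were high. The U-box gene Gb_02627, for a type of ubiquitin ligase, was 0.347, 0.679 and 387 FPKM in VC200 and at most 0.513 FPKM in VC20. Gb_06647 was likewise at most 1.28 FPKM in VC20 and 429 FPKM in VC200C alone. In the other direction, Gb_27209 was 1131 and 1114 FPKM in VC200A and VC200B and 2.04 FPKM in VC200C, with 632 to 1421 FPKM in VC20. TAR1 (Gb_38405) was 60.02 and 29.7 FPKM in VC200A and VC200B and 0.271 FPKM in VC200C, which was inside the VC20 range of 0.0897 to 0.406 FPKM. These genes were chosen for the gap of VC200C and none was called. Their sign rested on that tree in some cases. Without VC200C the log2 fold change of Gb_06647 went from 2.28 to −0.58 and that of Gb_27209 from −2.72 to 0.13.

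A core of 43 genes, 20 higher and 23 lower, was called with limma, without VC200C, after quantile normalization and by edgeR on recovered fragments. By itself, edgeR called 55 genes (0.259%), 23 higher (0.108%) and 32 lower (0.151%). The 12 with the largest change included *CYP78A4* (Gb_34420), the *PHO1* homolog, zinc transporter 2, the laccase Novel00066, the glucosidase Gb_10699 and Gb_20590, a cytochrome b561 and DOMON domain protein of electron transfer. Gb_20590 fell from 10.3, 18.8 and 6.38 FPKM to 0.433, 0.815 and 0.0503 FPKM (−3.08 ± 0.40, adjusted p = 0.0289). The others have no annotation. Gb_25238 rose from 22.2, 10.5 and 20.1 FPKM to 130.1, 164 and 211 FPKM (3.22 ± 0.30, 0.0126). Gb_01664 fell from 13.4, 15.7 and 12.8 FPKM to 0.920, 0.571 and 0.701 FPKM (−3.11 ± 0.23, 0.00694), the lowest adjusted p of all. Both groups were tight for Gb_01664. Gb_20591, next to Gb_20590 on scaffold3274, fell from 17.2, 11.8 and 7.25 FPKM to 0, 0.0466 and 0 FPKM (−3.61 ± 0.34, 0.0126). Gb_16430, from 26.0, 11.4 and 26.0 FPKM to 0.246, 0 and 0.571 FPKM, completed the lower genes, and Gb_18191 and Gb_05668 the higher ones.

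**Figure D4:**
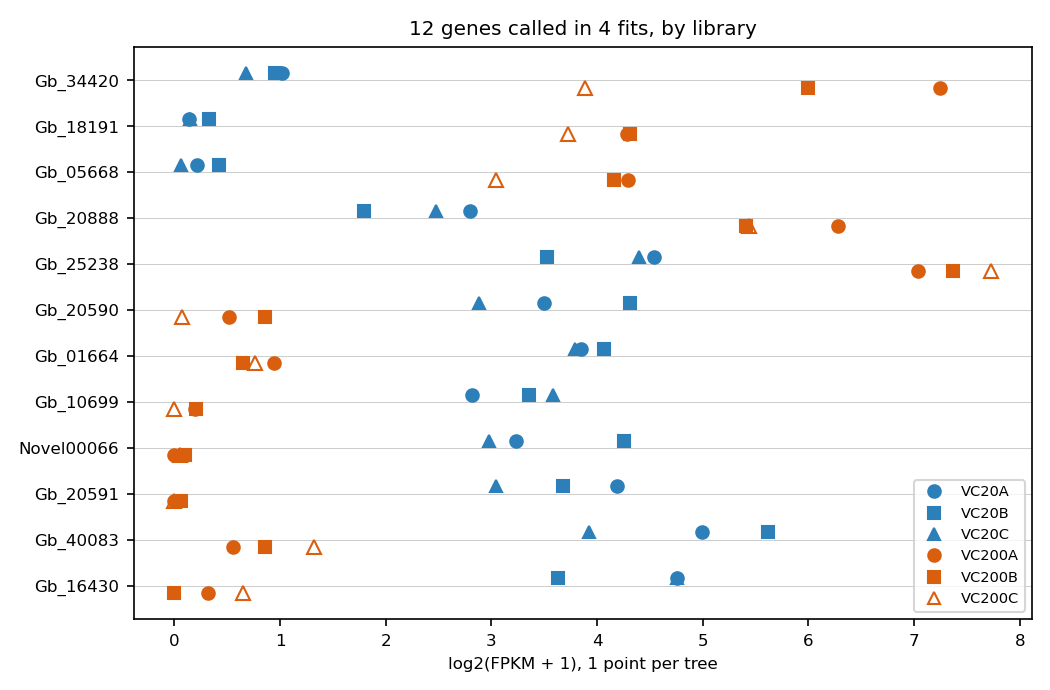
Transcript levels, log2(FPKM + 1) (x axis), of the 12 genes (y axis) with the largest change among 43 called in 4 fits, 1 point per tree. The 3 VC200 trees (orange, VC200C as open triangles) lie on one side of the 3 VC20 trees (blue) in each gene, and VC200C is the lowest VC200 tree for Gb_34420 and the highest for Gb_25238.

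The number of calls depended on single trees other than VC200C as well. Without VC200A, limma called 0 genes, with a lowest adjusted p of 0.0547 and 3,648 genes at an unadjusted p under 0.05, against 4,415 genes with all trees. Without VC20A, VC20B, VC20C or VC200B it called 9, 3, 20 and 21 genes, and without VC600A and VC600B it called 122 and 131. No called gene changed sign in any fit without 1 library. This was fixed in advance, since the groups did not overlap in any called gene. The genes called in most of these 9 fits were Gb_01664 and Gb_25238, in 8 fits each, and none was called in all 9.

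**Figure D5:**
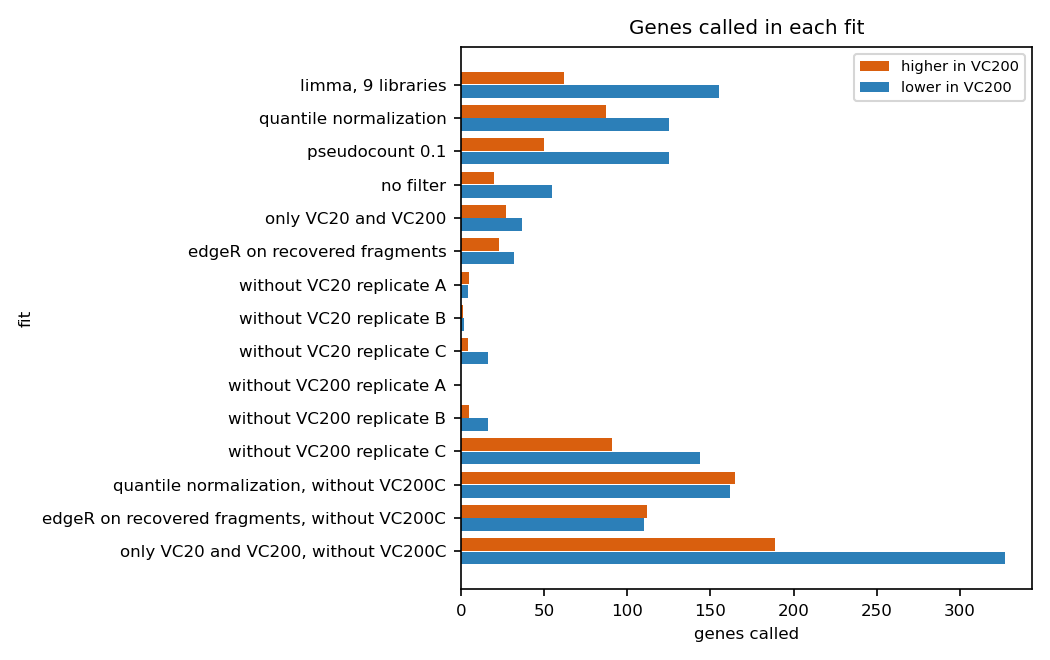
Number of genes called higher (orange) and lower (blue) in VC200 (x axis) in each fit (y axis). The 62 higher and 155 lower genes of the 9-library fit became 91 and 144 without VC200C and 0 and 0 without VC200A.

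The same genes in VC600 mostly lay between VC20 and VC200. The VC600 mean was between the VC20 and VC200 means for 189 of the 217 genes, beyond VC200 for 19 and past VC20 on the other side for 7. The lower genes had a median difference from VC20 of −1.72 in VC200 and −0.71 in VC600, and the higher genes 1.87 and 0.94. The genes were chosen for their difference in VC200, and both differences share the VC20 trees, so that no test was made. *PHO1* homolog 1 was 7.04, 9.24 and 13.1 FPKM in VC600, above VC20 and below every VC200 tree. The laccase Novel00066 was 8.61, 3.09 and 11.7 FPKM in VC600, which overlapped VC20. *MADS22* was 0.473, 0.794 and 0.620 FPKM in VC600, below every VC20 tree and below VC200C. The iron superoxide dismutase was 112, 141 and 121 FPKM in VC600, within the range of the VC200 trees.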

How the data were processed

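The authors sequenced paired-end cambium libraries of 9 trees, aligned the reads to the *G. biloba* genome (HISAT per the methods, TopHat2 2.0.12 and Cufflinks 2.1.1 in the submitters' processing notes) and deposited FPKM values per gene. The counting tool and its use of strand are not given in the sources used here. FPKM values were used as deposited, and implied totals were 15,732,414 to 18,811,748 fragments per library. The authors also deposited raw miRNA read counts, of which 4 sRNA libraries were used (1,184,091 to 1,842,055 reads).

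The test was run on log2(FPKM + 1), for genes that reached 1 FPKM in 3 or more libraries, with limma 3.58.1 (lmFit, eBayes with trend) in R 4.3.3, in 1 fit of the 9 libraries. Fold changes on this scale understate the change of low genes. The threshold was a Benjamini-Hochberg adjusted p of 0.05 and a log2 fold change of 1. Alternatives were a pseudocount of 0.1, quantile normalization, no filter, a fit of VC20 and VC200 alone, no minimum fold change, array weights, each library left out, a replicate block, and edgeR 4.0.16 and DESeq2 1.42.0 on fragments recovered from FPKM and gene length, in which 97.0 to 97.5% of values per library came out whole. The procedure was also run on simulated counts that had the same dispersion for all genes and no outlying library. That run therefore does not cover a library such as VC200C.

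The comparison, gene lists and rules were chosen with earlier results of these data known. Named genes were the 10 largest called rises and falls without overlap of the groups, up to 3 called members per list (or the 2 with the smallest p), 12 genes called in 4 fits, the 3 most abundant called genes in each direction, the genes with the largest gap of VC200C, and the genes nearest to the threshold. Genes named outside this rule are marked as chosen after their values were seen or are named for their position. Python 3.11.15 with pandas 2.3.3, numpy 2.4.6 and matplotlib 3.10.9 was used around these.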

Additional observations from a re-analysis of the deposited data

How the results depend on the processing

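The number of genes called depended on the fit. No named gene reversed under these alternatives, apart from genes chosen for their gap in VC200C, some of which changed sign without that tree. For called genes this was close to fixed in advance, since their groups did not overlap. Against 217 genes called (62 higher, 155 lower), limma gave 75 (20 and 55) with no filter, 64 (27 and 37) with only VC20 and VC200 in the fit, and 1643 (563 and 1080) with array weights. On recovered fragments edgeR gave 55 (23 and 32) and DESeq2 gave 1053 (490 and 563), with medians over all genes of 0.0316 and 0.0393 on the log2 scale. With a replicate block, limma gave 58 (10 and 48). Deviations of trees with the same replicate letter correlated at −0.245 to 0.277. Between VC20 and VC200 the values for B and C were 0.277 and 0.226. Trees of different letters were not compared, so that a pairing by letter was not tested. With each library left out in turn, the counts ranged from 0 to 235, 0 to 91 higher and 0 to 144 lower. A pseudocount of 0.1 gave 175 genes, and no minimum fold change gave 246. Further fits without VC200C, beside the limma fit that left it out, were chosen after seeing the data. They gave 327 genes (165 higher, 162 lower) after quantile normalization, 222 (112 and 110) with edgeR, 1257 (576 and 681) with DESeq2, and 516 (189 and 327) with only VC20 and VC200. The cause of these differences was not tested. Of 1,605 values of named genes under alternatives, 995 kept their side of the threshold, 555 no longer passed it and 55 newly passed it.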
